A study of Mus musculus with 6 samples.

Results

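The 7 genes described here, Trem2, Spp1, Gpnmb, Lgals3, Cd9, Fabp5 and Dcstamp, are markers of lipid-associated macrophages. They were chosen by symbol, all 7 are among the 22322 genes of the expression table, and all 7 passed the filter on low counts that left 13829 genes for testing. They were measured by RNA-seq in epididymal white adipose tissue, in 3 libraries from CD44 KO mice and 3 from wild type mice, all fed a high fat diet for 17 weeks. The sources used here give neither the knockout allele nor the strain or age of the mice. Each library is taken as 1 mouse, and the p-values measure only the spread between these libraries.

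Lipid-associated macrophages gather around dying adipocytes in obese fat, where they take up and break down the released lipid. Their surface receptor TREM2 binds lipids and lipoproteins and signals through the adaptor TYROBP, and mouse macrophages lacking it do not take on the full lipid-handling state. CD44, the gene product absent from the knockout, is a receptor for hyaluronan and also for osteopontin, the secreted protein that Spp1 encodes. In bulk tissue, fewer cells of a type and less RNA per cell cannot be told apart, and that holds for every value below.

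The promoters of the 3 members whose windows hold a searched motif are shown, and the part of any motif in the members' levels was not tested. Sequences are from RefSeq, build GRCm38.p6, and run 5′ to 3′ on the gene's strand from 250 bases before the start site to 50 after it. Capitals mark matches to TGANTCA, the AP-1 motif searched here with any base at N, or to GAGGAAG, a PU.1 core. Both strands were searched. The table matched 5 of the 7 members by symbol, Spp1 with a second window that is not shown.
Trem2: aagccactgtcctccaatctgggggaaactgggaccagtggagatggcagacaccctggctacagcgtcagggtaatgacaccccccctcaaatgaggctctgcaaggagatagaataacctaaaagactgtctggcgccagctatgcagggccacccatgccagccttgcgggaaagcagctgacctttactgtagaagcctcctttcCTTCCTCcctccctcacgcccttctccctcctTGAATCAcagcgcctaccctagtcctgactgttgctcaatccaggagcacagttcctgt
Spp1: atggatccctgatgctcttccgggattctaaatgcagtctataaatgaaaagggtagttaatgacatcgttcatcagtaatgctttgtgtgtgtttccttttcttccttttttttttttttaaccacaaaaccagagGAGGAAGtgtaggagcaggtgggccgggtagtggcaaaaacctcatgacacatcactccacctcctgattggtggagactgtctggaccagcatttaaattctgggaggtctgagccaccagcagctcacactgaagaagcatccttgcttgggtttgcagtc
Gpnmb: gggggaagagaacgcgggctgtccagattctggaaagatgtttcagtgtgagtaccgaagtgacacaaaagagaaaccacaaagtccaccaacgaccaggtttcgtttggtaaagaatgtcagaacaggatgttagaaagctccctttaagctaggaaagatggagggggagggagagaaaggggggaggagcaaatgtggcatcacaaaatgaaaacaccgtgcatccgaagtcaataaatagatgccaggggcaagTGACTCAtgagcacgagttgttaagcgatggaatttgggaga
The windows are chr17:48346151-48346450 for Trem2, chr5:104434861-104435160 for Spp1 and chr6:49036268-49036567 for Gpnmb, all on the plus strand. The Trem2 window holds TGAATCA at -9 and, on the other strand, the PU.1 core at -41. Gpnmb holds TGACTCA at 9 and Spp1 holds GAGGAAG at -113, with positions counted from the RefSeq start site as 1. For Gpnmb and Spp1 that site lies upstream of the GENCODE gene start given further on, and the Gpnmb motif is upstream of the GENCODE start. Neither Lgals3, Cd9 nor the second Spp1 window holds any of the 3 motifs. CACGTG, the E-box that MiT-TFE factors bind, is in none of the members' windows. Of all 32851 promoter windows, 7.81% hold the AP-1 motif, 13.6% the PU.1 core and 7.15% the E-box, and the motifs searched do not overlap each other in the windows shown. A match is a description of letters only.

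None of the 7 members passed the test, and all 7 had negative log2 fold changes, with a median of -2.47 beside 0.03 over all genes tested. By the quasi-likelihood F-test of edgeR with Benjamini-Hochberg adjustment, 0 members were called lower at an adjusted p under 0.05 and 0 higher. Among all genes tested 0.882% were called lower and 1.74% higher. Unadjusted p-values under 0.05 were found for 3 members, Cd9, Fabp5 and Dcstamp, and among all genes tested for 14.7% with a negative and 16.3% with a positive log2 fold change. With DESeq2, 4 members were called lower (Lgals3, Cd9, Fabp5 and Dcstamp), where 9.74% of the genes it tested were. The authors' deposited table gives the same 4 genes an adjusted p under 0.05, against 5.94% of its 22322 genes called lower. The 9.74% of DESeq2 is a share of 14985 genes. The authors' unadjusted p-values for the 7 members were within 0.04% of those of DESeq2 here, so their table is not a second, separate test. In that table the adjusted p-values are 0.0466 for Lgals3, 0.00872 for Cd9, 0.0135 for Fabp5 and 0.0376 for Dcstamp, with log2 fold changes of KO over NC of -2.48, -1.97, -1.62 and -2.97.

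CD44 KO replicate 1 stood apart from the other 2 knockout libraries in every member. Across all genes tested its log2 CPM also correlated more with wild type libraries (mean r 0.932) than with the other CD44 KO libraries (0.908), whereas CD44 KO replicates 2 and 3 correlated more with their own genotype (0.890 and 0.916) than with wild type (0.791 and 0.872). It held the highest CD44 KO level of all 7 genes, while CD44 KO replicates 2 and 3 were below all 3 wild type libraries in all 7. Among all genes tested, 26.9% showed that second pattern. In 3 members, Trem2, Lgals3 and Fabp5, all CD44 KO libraries were below all wild type libraries, as were 18.1% of all genes tested. The libraries of the other 4 overlapped between genotypes. Without CD44 KO replicate 1, edgeR called 6 of the 7 members lower, all but Spp1, against 9.65% of genes called lower in that fit. Without any 1 of the other 5 libraries it called 0. Wild type replicate 1 was the lowest wild type library for 6 members, and wild type replicate 2 the highest for 6.

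**Figure D1:**
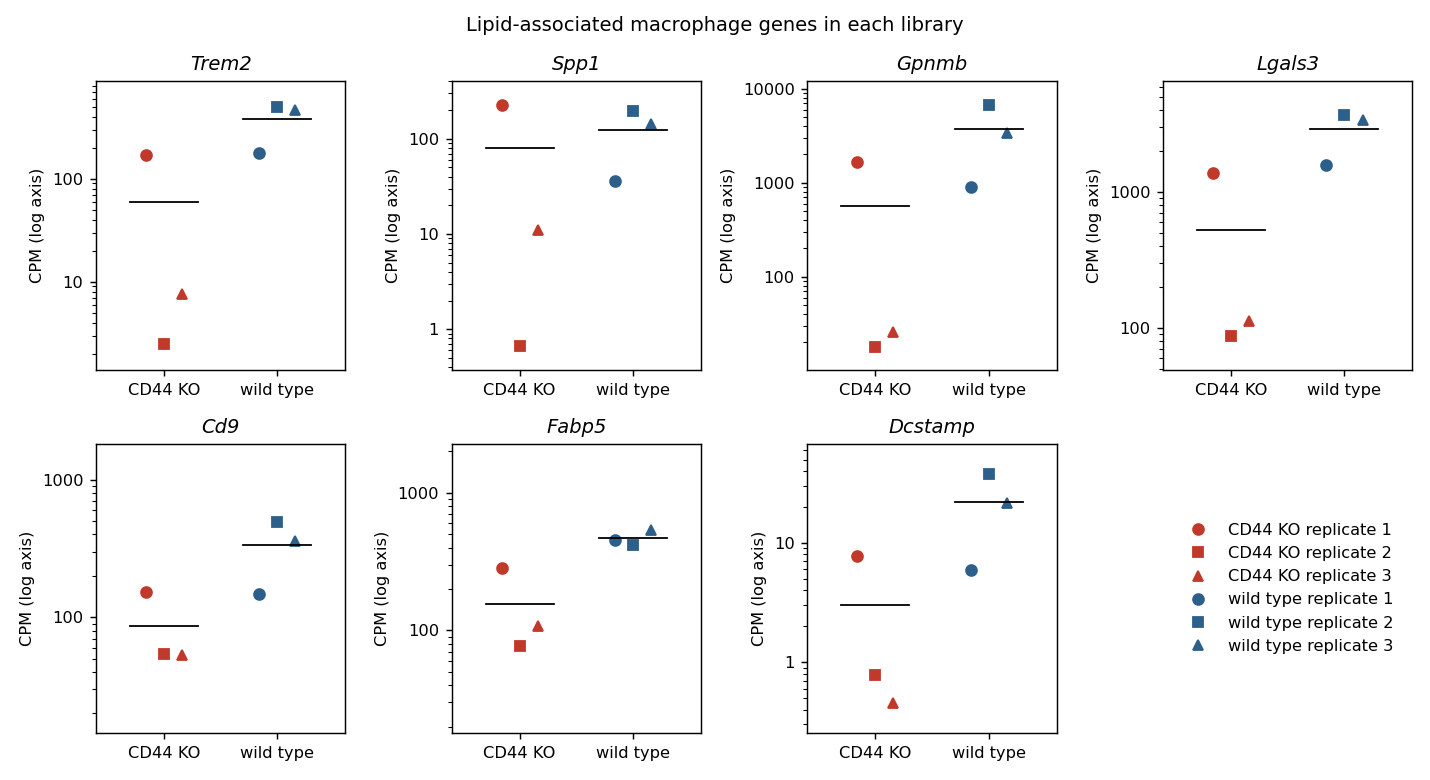
Level in CPM (log axis) of the 7 members in each CD44 KO (left, red) and wild type (right, blue) library, with the marker shape giving the replicate and the bar the arithmetic mean of 3. CD44 KO replicates 2 and 3 lie below all wild type libraries in all 7 panels, and CD44 KO replicate 1 lies above all wild type libraries for Spp1.

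Per length, Lgals3 was the most abundant member in wild type fat and Dcstamp was, on average, the least abundant in both genotypes. By the authors' FPKM, which are scaled for transcript length and depth, Lgals3 averaged 444 ± 629 in CD44 KO and 2482 ± 945 in wild type (SD, n = 3 each). Gpnmb averaged 162 ± 270 FPKM in CD44 KO and 1078 ± 861 FPKM in wild type, and Fabp5 157 ± 117 FPKM in CD44 KO and 483 ± 63.2 FPKM in wild type. Next in wild type came Trem2 with 356 ± 165 FPKM and Cd9 with 275 ± 142 FPKM, whose libraries overlapped each other and, for Trem2, those of Fabp5. Spp1 averaged 57.2 ± 92.0 FPKM in CD44 KO and 89.4 ± 57.2 FPKM in wild type. The order differed between libraries. Fabp5 was first and Lgals3 second in CD44 KO replicates 2 and 3, with 72.7 and 108 FPKM for Fabp5 and 67.7 and 95.1 FPKM for Lgals3. In CD44 KO replicate 1 and in all 3 wild type libraries Lgals3 and Gpnmb were first and second, except in wild type replicate 1, where Fabp5 at 469 FPKM was above Gpnmb at 260.5 FPKM. Together the 7 genes took 0.390%, 0.0224% and 0.0316% of the counts in CD44 KO replicates 1 to 3, and 0.337%, 1.22% and 0.849% in wild type replicates 1 to 3.

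Trem2 (ENSMUSG00000023992, plus strand of chromosome 17, 48346401 to 48354147 in GENCODE M21, GRCm38), the lipid-sensing receptor of these macrophages, had 2851, 41 and 117 expected counts in CD44 KO replicates 1 to 3. In wild type replicates 1 to 3 it had 2994, 9259 and 8952. Scaled to library size as CPM, these are 169, 2.46 and 7.57 in CD44 KO and 177, 499 and 467 CPM in wild type. The genotypes did not overlap, but by a narrow margin, since CD44 KO replicate 1 reached 0.959 times the level of wild type replicate 1. Within CD44 KO the highest library was 68.7 times the lowest, against 2.83 times within wild type. The mean difference was 6.37-fold lower in CD44 KO, with a 95% interval of the fold decrease from 0.365 to 111 that spans no difference. Its log2 fold change of -2.67 (SE 1.49) had an adjusted p of 0.257 by edgeR, and without CD44 KO replicate 1 it stood at -6.25 with an adjusted p of 0.0209.

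Genes through which TREM2 acts, and the proteases that shed it, also had negative log2 fold changes with none called. All 14 listed genes were tested and negative (median -1.49), 9 of them at an unadjusted p under 0.05 (14.7% of all genes, as above), and 0 were called by edgeR. Tyrobp, the TREM2 adaptor, stood at 195, 6.55 and 27.0 CPM in CD44 KO and at 191, 388 and 438 CPM in wild type, so that CD44 KO replicate 1 was level with wild type replicate 1. Syk, the kinase recruited to the adaptor, averaged 48.4 ± 51.4 CPM in CD44 KO and 250 ± 120 CPM in wild type. The lowest p of the list belonged to Adam10, a protease that releases TREM2 from the surface, with 92.2, 73.0 and 62.5 CPM in CD44 KO and 107, 155 and 122 CPM in wild type. Its log2 fold change was -0.75 (SE 0.22, edgeR adjusted p 0.0910). Vav3, Plxna1 and Pik3cg followed, with edgeR adjusted p-values of 0.0928, 0.0985 and 0.113 at log2 fold changes of -1.29, -1.37 and -2.16. Without CD44 KO replicate 1, 10 of the 14 were called lower, against 9.65% of all genes tested in that fit. Each of the other fits with 1 library left out called 0 of the 14 lower. Of 7 genes of the TREM family and the related receptor Cd300lb, 6 are in the table, 3 were tested and 0 were called.

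Spp1 (ENSMUSG00000029304, plus strand of chromosome 5, 104435118 to 104441050) encodes osteopontin, a secreted ligand of integrins and of CD44. It was the one member whose CD44 KO replicate 1 exceeded every wild type library. Its levels were 227, 0.661 and 10.9 CPM in CD44 KO and 36.3, 194 and 143 CPM in wild type. In the knockout the counts behind these levels ran from 11 to 3826, so the highest library was 344 times the lowest. The groups overlapped fully at the top, and CD44 KO replicate 1 was 6.26 times wild type replicate 1. The log2 fold change was -0.64 (SE 1.64), the edgeR adjusted p was 0.811, and the 95% interval of the fold decrease ran from 0.0666 to 36.5. Spp1 alone stayed uncalled without CD44 KO replicate 1, at a log2 fold change of -4.43 with an adjusted p of 0.0688. It stood at -0.06, -0.13 and -0.15 without CD44 KO replicate 2, CD44 KO replicate 3 and wild type replicate 2.

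Of the 9 osteopontin receptor genes, 1 was called lower and 0 higher, against 0.882% and 1.74% of all genes tested. The gene called was Cd44 itself, the target of the knockout. With Cd44 included, 8 of the 9 had negative log2 fold changes at an unadjusted p under 0.05, against 14.7% of all genes tested. In 8 all CD44 KO libraries were below all wild type libraries and in 1 above, against 18.1% and 19.7% of all genes tested. Cd44 stood at 1.66, 3.00 and 2.20 CPM in CD44 KO and at 182, 570 and 313 CPM in wild type, with 3091 to 10580 expected counts in wild type libraries (log2 fold change -7.27, SE 0.58, edgeR adjusted p 0.0126). CD44 KO replicate 1 had as little Cd44 as the other knockout libraries. Without CD44 KO replicate 3 the edgeR adjusted p of Cd44 was 0.0785 and without wild type replicate 3 it was 0.122, with log2 fold changes of -7.25 and -7.36. The 8 integrin subunits were not called with all libraries. In the fit without CD44 KO replicate 1 the list had 4 lower calls, Cd44 and 3 integrin subunits, against 9.65% of all genes tested. Each of the other fits with 1 library left out had 0 or 1 lower call. Itgb5, Itga5 and Itga9, subunits of osteopontin-binding integrins, were the nearest to the threshold (edgeR adjusted p 0.0560, 0.0740 and 0.0808), at log2 fold changes of -0.84, -1.51 and -0.87. Itgb5 stood at 179, 129 and 156 CPM in CD44 KO and at 261, 283 and 289 CPM in wild type, with no overlap.

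Gpnmb (ENSMUSG00000029816, plus strand of chromosome 6, 49036546 to 49070929) encodes a transmembrane glycoprotein of lysosomes and the cell surface that is abundant in lipid-laden macrophages. It had the widest range of the 7 in absolute level, with 1644, 18.0 and 25.8 CPM in CD44 KO and 909, 6785 and 3361 CPM in wild type. The groups overlapped, since CD44 KO replicate 1 was 1.81 times wild type replicate 1. In wild type replicate 2 this single gene took 0.680% of all counts, and in CD44 KO replicate 2 it took 0.00169%. The log2 fold change was -2.71 (SE 1.79) with an edgeR adjusted p of 0.326 and a 95% interval of the fold decrease from 0.210 to 204. It was -7.40 without CD44 KO replicate 1 (adjusted p 0.0229) and -1.90 without wild type replicate 2.

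Genes of the MiT-TFE transcription factors, which drive lysosomal genes and, in mouse macrophages, Gpnmb, were not called either. Of 6 listed genes 5 were tested, all negative (median -0.75), with 2 at an unadjusted p under 0.05, against 14.7% of all genes tested. Mitf stood at 21.7, 5.53 and 24.9 CPM in CD44 KO and at 25.3, 66.0 and 46.7 CPM in wild type (log2 fold change -1.41, SE 0.60, edgeR adjusted p 0.171). In the same libraries Gpnmb stood at 1644, 18.0 and 25.8 CPM in CD44 KO and at 909, 6785 and 3361 CPM in wild type. Whether these factors have a part in the Gpnmb levels was not tested. Tfeb had a log2 fold change of -0.75 (edgeR adjusted p 0.112), Tfe3 of -0.65 (0.151) and Tfec of -1.72 (0.345). Leaving out CD44 KO replicate 1 gave 0 calls among the 5, where 9.65% of all genes tested in that fit were called lower.

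Lgals3 (ENSMUSG00000050335, plus strand of chromosome 14, 47367751 to 47386160) encodes galectin-3, a lectin that binds beta-galactosides on damaged lysosomes and on the cell surface. Its levels were 1375, 87.0 and 112 CPM in CD44 KO and 1582, 3704 and 3428 CPM in wild type. The genotypes did not overlap, with CD44 KO replicate 1 at 0.869 times wild type replicate 1. The mean difference was 5.54-fold lower (95% interval of the fold decrease 0.617 to 49.7), a log2 fold change of -2.47 (SE 1.14) with an edgeR adjusted p of 0.193. DESeq2 gave an adjusted p of 0.0385, and edgeR without CD44 KO replicate 1 gave -4.87 with 0.0203.

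The other galectin genes were mixed in direction, and 2 of them were called higher with all 6 libraries. Of 7 tested genes of the family 2 were called higher and 0 lower, against 1.74% and 0.882% of all genes tested. By direction 3 were positive and 4 negative (median -0.23). Lgals12, the galectin of adipocytes that sits on lipid droplets, stood at 254, 343 and 466 CPM in CD44 KO and at 98.5, 39.1 and 53.9 CPM in wild type, 5.55-fold higher (95% interval 2.50 to 12.3, edgeR adjusted p 0.0430). Lgals4, a galectin best known from gut epithelium, stood at 9.85, 13.9 and 17.4 CPM in CD44 KO and at 4.07, 2.37 and 3.50 CPM in wild type, 4.14-fold higher (95% interval 2.22 to 7.69, edgeR adjusted p 0.0390). Neither gene overlapped between genotypes, and 19.7% of all genes tested were higher in CD44 KO without overlap. The Lgals12 call was lost without CD44 KO replicate 2 or 3 or wild type replicate 2 or 3 (edgeR adjusted p 0.0747, 0.123, 0.150 and 0.246), and the Lgals4 call without any 1 library other than CD44 KO replicate 1 (0.0525 to 0.235). The galectin-3 binding protein gene Lgals3bp averaged below wild type, with 232, 144 and 206 CPM in CD44 KO and 448, 363 and 403 CPM in wild type (edgeR adjusted p 0.0591). Lgals1 overlapped between genotypes, with a log2 fold change of -0.70 (edgeR adjusted p 0.274). The family's median was between 0.77 and 0.96 in the 4 fits that tested 8 of its genes, those without CD44 KO replicate 3 or any 1 wild type library.

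Cd9 (ENSMUSG00000030342, minus strand of chromosome 6, 125460266 to 125494791) encodes a tetraspanin that organises adhesion and fusion proteins in the membrane of many cell types. It had 153, 54.2 and 53.3 CPM in CD44 KO and 148, 493 and 360 CPM in wild type. CD44 KO replicate 1 and wild type replicate 1 were alike (1.03 times), and the other 2 libraries of each genotype were apart from them in opposite directions. In CD44 KO the spread was small for a member of this group, with the highest library 2.87 times the lowest. Cd9 was 3.85-fold lower on average (95% interval 1.20 to 12.3). The log2 fold change was -1.94 (SE 0.60), with an unadjusted p of 0.0168 and an edgeR adjusted p of 0.104. The adjusted p was 0.0326 without CD44 KO replicate 1 and 0.00719 by DESeq2.

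Among other tetraspanins and partners of CD9, 0 of 11 tested genes were called, and 7 were negative (median -0.11). Ptgfrn, which encodes a direct partner of CD9, had the lowest p of the list, at 48.0, 22.2 and 26.9 CPM in CD44 KO and 83.4, 138 and 101 CPM in wild type (edgeR adjusted p 0.0550). Igsf8, the other direct partner listed, had a log2 fold change of -1.26 (edgeR adjusted p 0.122). Cd81, the closest relative of Cd9, overlapped between genotypes at -0.09 (0.845). The fit that leaves out CD44 KO replicate 1 called 4 of the 11 lower, against 9.65% of all genes it tested. Each of the other fits with 1 library left out called 0 lower.

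Fabp5 (ENSMUSG00000027533, plus strand of chromosome 3, 10012548 to 10016607) encodes a cytosolic fatty acid carrier of macrophages and epithelia. Its levels were 284, 76.7 and 107 CPM in CD44 KO and 456, 421 and 533 CPM in wild type. Wild type libraries were close to each other, the highest 1.27 times the lowest, and all 3 CD44 KO libraries were below them. The mean difference was 3.01-fold lower (95% interval 1.16 to 7.84), a log2 fold change of -1.59 (SE 0.50) with an unadjusted p of 0.0171 and an edgeR adjusted p of 0.104. It was -2.35 without CD44 KO replicate 1 (adjusted p 0.0203). GENCODE M21 lists 1 processed pseudogene named after this gene, Fabp5l2, and reads shared with such copies could not be separated here.

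Fabp4, the carrier that adipocytes and macrophages both express, went against Fabp5 in direction and was not called. It stood at 14760.0, 11521 and 17739 CPM in CD44 KO and at 13400.5, 5042 and 9653 CPM in wild type, and the genotypes overlapped (log2 fold change 0.65, SE 0.43, edgeR adjusted p 0.327). Of 13 genes of the fatty acid and retinoid binding protein family 6 were tested, 3 positive and 3 negative, and 0 were called. Fabp7, which encodes a carrier best known from glia, was low at 1.07, 0.120 and 0.194 CPM in CD44 KO and 2.00, 6.47 and 5.27 CPM in wild type (edgeR adjusted p 0.0860).

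Dcstamp (ENSMUSG00000022303, plus strand of chromosome 15, 39745930 to 39760938) encodes a membrane protein that macrophages need to fuse into giant cells and osteoclasts. It was scarce, with 131, 13 and 7 expected counts in CD44 KO and 101, 709 and 418 in wild type. In CPM these are 7.78, 0.781 and 0.453 in CD44 KO and 5.95, 38.2 and 21.8 in wild type. CD44 KO replicate 1 lay above wild type replicate 1 and below the other 2 wild type libraries. At 7 and 13 counts the 2 low libraries carry a large counting error. The mean difference was 7.28-fold lower (95% interval 0.747 to 71.0), a log2 fold change of -2.86 (SE 1.18) with an unadjusted p of 0.0498 and an edgeR adjusted p of 0.161. Without CD44 KO replicate 1 it was -5.14 with an adjusted p of 0.0274.

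Other genes of macrophage fusion and osteoclasts gave 0 calls among 11 tested, with 9 negative (median -1.42). Ocstamp, the partner gene in fusion, stood at 4.33, 0 and 0.453 CPM in CD44 KO and at 2.95, 5.50 and 5.58 CPM in wild type. Ctsk, the collagen-degrading cathepsin of osteoclasts, averaged 61.5 ± 89.3 CPM in CD44 KO and 542 ± 413 CPM in wild type (log2 fold change -3.14, edgeR adjusted p 0.182). Itgb3 had the lowest p (log2 fold change -1.42, edgeR adjusted p 0.115). Acp5, which encodes the tartrate-resistant phosphatase that marks osteoclasts, overlapped fully, with 263, 211 and 321 CPM in CD44 KO and 338, 226 and 268 CPM in wild type. Leaving out CD44 KO replicate 1 gave 5 lower calls among the 11, against 9.65% of all genes tested in that fit. Leaving out any other 1 library gave 0.

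**Figure D2:**
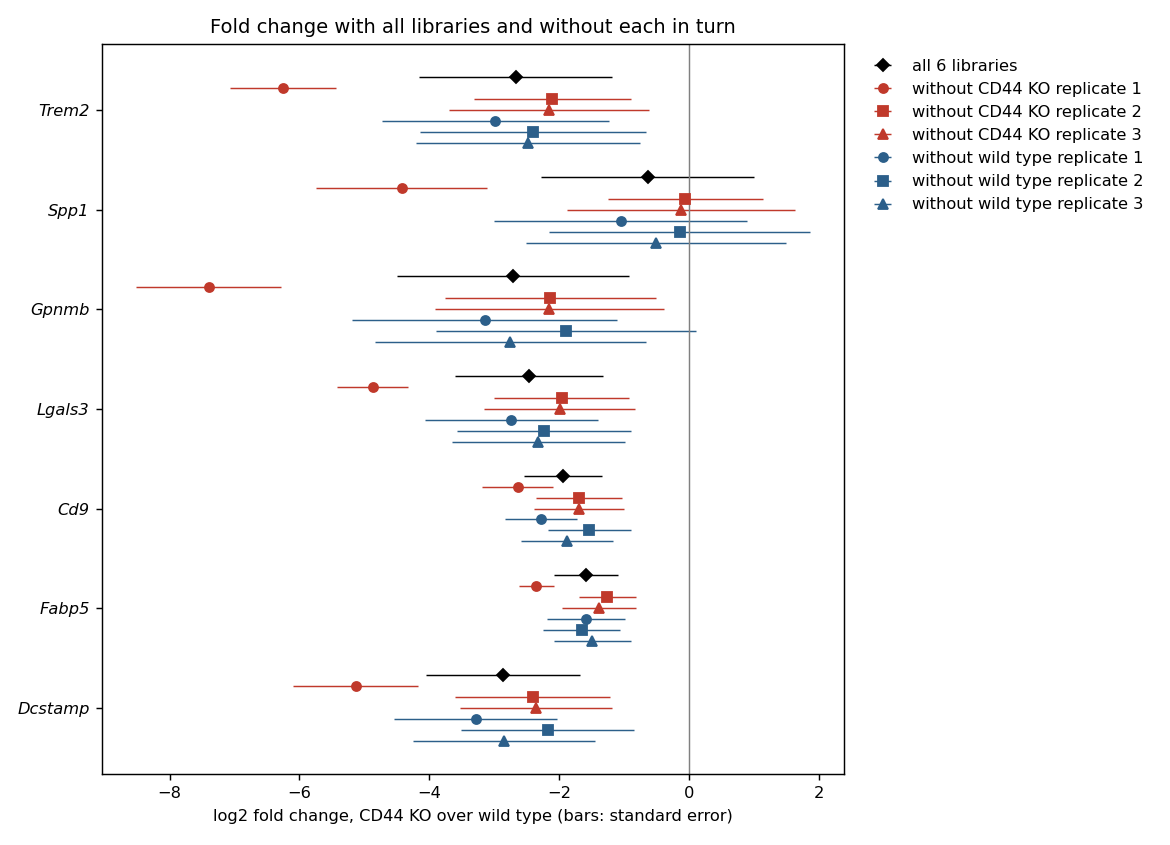
Log2 fold change of CD44 KO over wild type for each member by edgeR, with all 6 libraries (black) and without each CD44 KO (red) or wild type (blue) library in turn, and bars of 1 standard error. The fit without CD44 KO replicate 1 gives the most negative value for all 7 members, from -2.35 for Fabp5 to -7.40 for Gpnmb.

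A wider list of 20 genes of the lipid-associated program was mostly negative, with apolipoprotein E as an exception. All 20 were tested, 18 were negative (median -1.55) and 0 were called, while 11 had negative and 1 positive values at an unadjusted p under 0.05, against 14.7% and 16.3% of all genes tested. In 13 all CD44 KO libraries were below all wild type libraries and in 1 above, against 18.1% and 19.7% of all genes tested. Several of these genes are also expressed by adipocytes. Apoe stood at 5948, 4219 and 6401 CPM in CD44 KO and 2755, 2566 and 3118 CPM in wild type (log2 fold change 0.97, SE 0.27, edgeR adjusted p 0.0875). Cstb and Ctsd, a cathepsin inhibitor and a lysosomal protease, had log2 fold changes of -1.82 (0.0790) and -2.11 (0.102). The lipid uptake genes Cd36 and Lpl, which adipocytes also express strongly, were not called (log2 fold change -0.52, edgeR adjusted p 0.213 for Cd36, and -0.29, 0.456 for Lpl). With CD44 KO replicate 1 left out, 13 of the 20 were called lower, against 9.65% of all genes tested in that fit. With any other 1 library left out, 0 of the 20 were called lower.

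Macrophage markers as a whole were lowest in CD44 KO replicates 2 and 3, as were all 7 members. The summed level of 15 pan-macrophage markers was 5376, 333 and 1110 CPM in CD44 KO replicates 1 to 3 and 5290, 11328 and 8972 CPM in wild type replicates 1 to 3, with none of the 15 at 0 in any library. All 15 were tested, all were negative (median -2.09), and 0 were called. Mertk was nearly level, with a log2 fold change of -0.02 (edgeR adjusted p 0.967). In the fit without CD44 KO replicate 1, 12 of the 15 were called lower, against 9.65% of all genes tested, with a list median of -3.49. Each of the other fits with 1 library left out called 0 of the 15 lower. The complement genes C1qa and C1qc had the lowest p of the list, with log2 fold changes of -2.10 (edgeR adjusted p 0.102) and -2.18 (0.133). The 10 tissue-resident macrophage markers summed to between 175 and 630 CPM in CD44 KO and between 851 and 891 CPM in wild type. Of these 10, 9 were negative (median -0.59) and 0 were called. In 3 all CD44 KO libraries were below all wild type libraries, against 18.1% of all genes tested. Retnla was positive, with a log2 fold change of 0.48 (edgeR adjusted p 0.714).

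Set against those 15 markers, Trem2 and Gpnmb were lower in CD44 KO replicates 2 and 3, whereas Cd9 and Fabp5 were not. As a percentage of the summed pan-macrophage CPM, Trem2 was at 3.15, 0.739 and 0.682 in CD44 KO and at 3.34, 4.40 and 5.21 in wild type. Gpnmb was at 30.6, 5.40 and 2.33 percent in CD44 KO and at 17.2, 59.9 and 37.5 percent in wild type. Fabp5 was at 5.29, 23.0 and 9.68 percent in CD44 KO and at 8.62, 3.71 and 5.94 percent in wild type, and Cd9 at 2.84, 16.3 and 4.80 percent in CD44 KO and at 2.80, 4.35 and 4.02 percent in wild type. Lgals3 was at 25.6, 26.1 and 10.1 percent in CD44 KO, against 29.9 to 38.2 percent in wild type. On the log2 scale, the mean ratio to the markers differed (CD44 KO minus wild type) by -1.86 for Trem2, -2.22 for Gpnmb, -0.82 for Lgals3, -0.91 for Dcstamp, -0.39 for Spp1, 0.73 for Cd9 and 0.88 for Fabp5. By the exact permutation test, 2-sided over 3 against 3 libraries, p was 0.1 for Trem2 and Lgals3, which is the smallest this design allows, 0.2 for Gpnmb, 0.8 for Spp1 and 0.4 for the other 3. With 3 against 3 libraries no difference can reach 0.05, so the differences are given as values. Without CD44 KO replicate 1 the Trem2 and Gpnmb differences were -2.58 and -3.25, and the Spp1 difference ran from -1.48 without that library to 0.73 without CD44 KO replicate 2. Leaving out CD44 KO replicate 2, the library with the highest epididymis marker sum, gave a difference of 0.01 for Cd9 and 0.32 for Fabp5. When CD44 KO replicate 3 was left out, it was -1.39 for Gpnmb, -0.37 for Lgals3 and -0.19 for Dcstamp. When wild type replicate 2 was left out, it was -0.57 for Dcstamp and 0.56 for Fabp5.

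**Figure D3:**
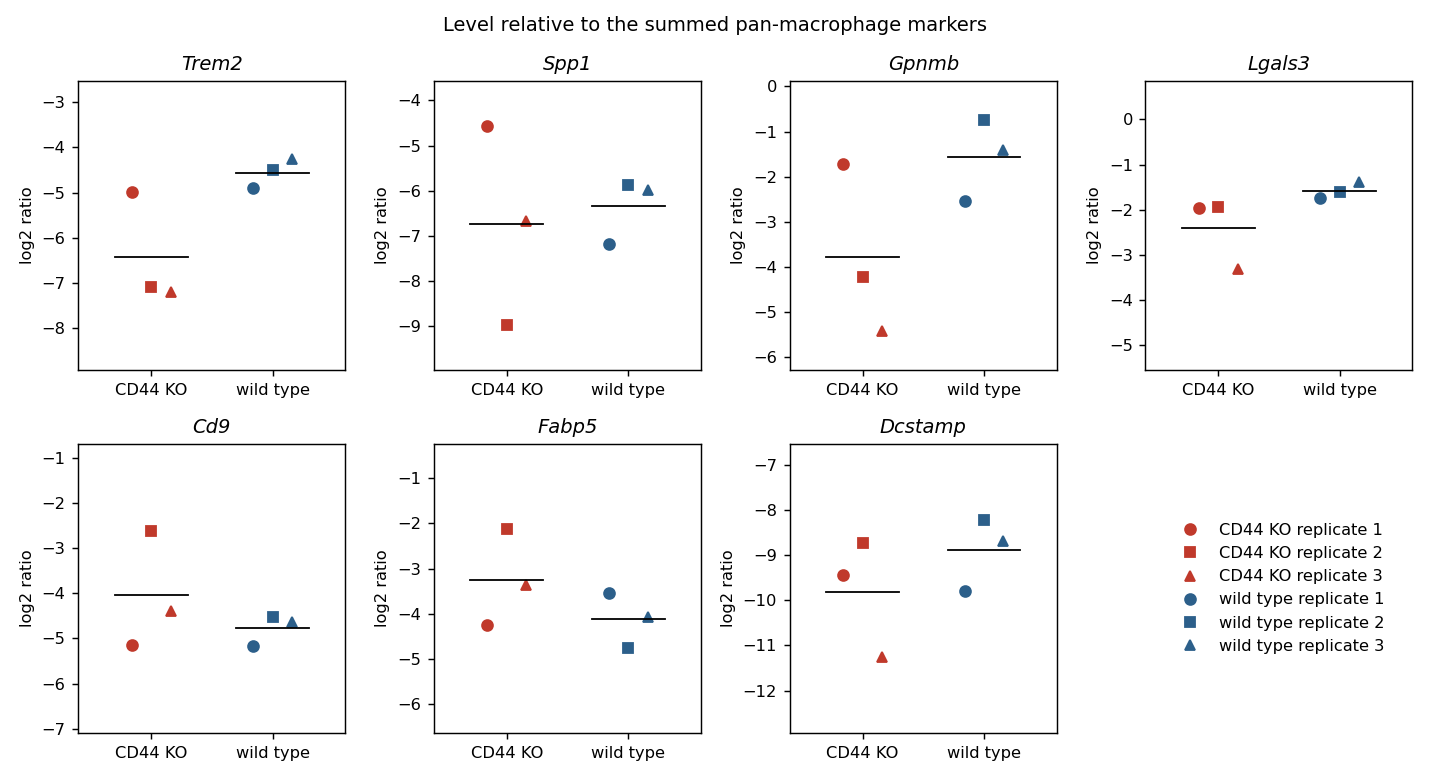
Log2 ratio of each member's CPM to the summed CPM of 15 pan-macrophage markers, for CD44 KO (left, red) and wild type (right, blue) libraries, with the marker shape giving the replicate and the bar the mean of 3. Every panel spans the same number of log2 units. CD44 KO replicates 2 and 3 lie below wild type for Trem2 and Gpnmb, and CD44 KO replicate 2 has the highest ratio for Cd9 and Fabp5.

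Markers of other cell types differed between the libraries to unlike degrees. Endothelial markers summed to between 774 and 1510 CPM in CD44 KO and between 634 and 1269 CPM in wild type, with 0 called. The dendritic cell, neutrophil, T and NK cell, B cell and skeletal muscle sums also overlapped between genotypes, with 0 called. Over all genes tested, 1.74% were called higher and 0.882% lower. The 14 mature adipocyte markers were detected in all libraries and summed to between 43060 and 62960 CPM in CD44 KO and between 19677 and 41310 CPM in wild type, and 1 of them, Cfd, was called higher. Of the 14, 12 had positive log2 fold changes, and Lep (-1.75, edgeR adjusted p 0.0682) and Lpl (-0.29, 0.456) negative ones. In these 2 all CD44 KO libraries were below all wild type libraries, and in 8 others above, against 18.1% and 19.7% of all genes tested. The 18 epididymis markers summed to 15.3, 13376 and 7.38 CPM in CD44 KO and to between 1.13 and 1.93 CPM in wild type, with 6 to 10 of the 18 at 0 in CD44 KO libraries and 12 in each wild type library. The 9 mesothelial markers summed to 85.2, 477 and 50.4 CPM in CD44 KO and to between 5.22 and 14.4 CPM in wild type. Of these, 1, Krt19, was called higher. Krt8 and Krt18 had the highest CD44 KO means of the 9, at 72.5 ± 107 and 80.2 ± 122 CPM (SD, n = 3). Epithelia other than mesothelium also express them, and the part of the epididymis in this sum was not tested. The Cfd and Krt19 calls were lost in 4 and 5 of the 6 fits with 1 library left out. Epithelia also express Cd9, Fabp5, Lgals3 and Spp1. In CD44 KO replicates 2 and 3, with 13376 and 7.38 CPM of epididymis markers, Cd9 stood at 54.2 and 53.3 CPM. Fabp5 stood at 76.7 and 107 CPM there, Lgals3 at 87.0 and 112 CPM and Spp1 at 0.661 and 10.9 CPM. As percentages of the summed pan-macrophage CPM, Cd9 was at 16.3 and 4.80 and Fabp5 at 23.0 and 9.68. Lgals3 was at 26.1 and 10.1 percent and Spp1 at 0.20 and 0.99 percent. Fibroblast and progenitor markers, 10 in number, summed to between 1073 and 1910 CPM in CD44 KO and between 2321 and 2695 CPM in wild type, and 1 of them, Pi16, was called lower, a call lost in 4 of those 6 fits. The part of these other cell types in the members' levels was not tested. Total expected counts ran from 15543317 to 17790847 in CD44 KO and from 16692760 to 18765009 in wild type.

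**Figure D4:**
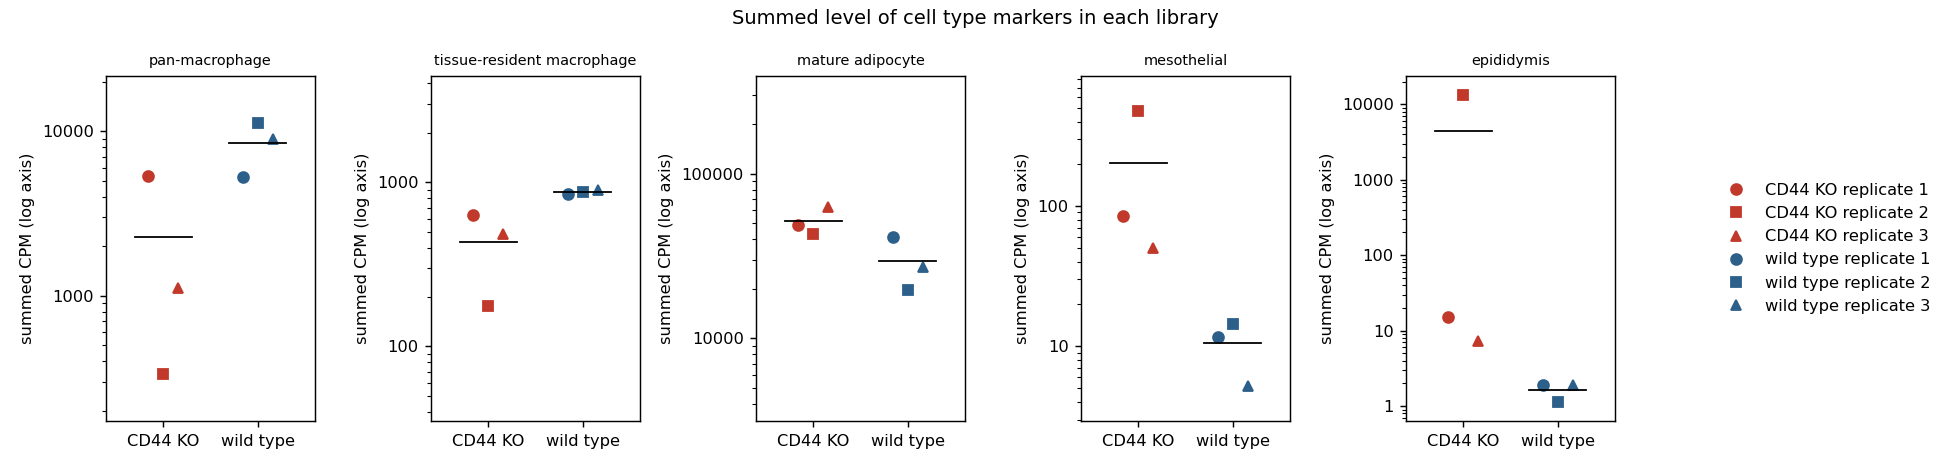
Summed CPM (log axis) of 15 pan-macrophage, 10 tissue-resident macrophage, 14 mature adipocyte, 9 mesothelial and 18 epididymis markers in each CD44 KO (left, red) and wild type (right, blue) library, with bars at the arithmetic mean of 3. The pan-macrophage sum of CD44 KO replicate 1 is at the level of wild type replicate 1, and the epididymis sum of CD44 KO replicate 2 reaches 13376 CPM.

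The members fell into patterns of different amplitude. Likeness was measured as the root mean square difference between 2 genes in log2 CPM, after each gene's mean over the 6 libraries was removed, so that 0 means identical profiles. The closest pairs of members were Lgals3 with Dcstamp at 0.52, Cd9 with Fabp5 at 0.56 and Trem2 with Gpnmb at 0.64, and the most distant was Gpnmb with Fabp5 at 2.34. These values share the libraries and their scaling and carry no test. Among 12883 other genes whose mean reached 1 CPM, the profiles nearest to Trem2 were those of Lat2, a signalling adaptor of myeloid and B cells, at 0.18, and of Slc37a2, a sugar-phosphate transporter gene of macrophages, at 0.20. Lat2 stood at 73.1, 1.14 and 4.27 CPM in CD44 KO and 72.3, 217 and 183 CPM in wild type. Dhrs9, a retinol dehydrogenase gene, was nearest to Gpnmb at 0.18, followed by the tetraspanin-like gene Tm4sf19 at 0.29 and the interleukin-1 receptor antagonist gene Il1rn at 0.31.

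Nearest to Lgals3 were Milr1, an inhibitory receptor gene of myeloid cells, at 0.19, and Nceh1, which encodes a cholesterol ester hydrolase of macrophages, at 0.21. Cd9 was nearest to Fgd3, Ubash3b and Niban2 (0.12, 0.13 and 0.14). For Fabp5 the nearest profiles were those of Rad51ap1, a DNA repair gene, and Tedc1 (0.14 and 0.17), then Tnfrsf12a, the receptor for TWEAK, at 0.20. Tnfrsf12a had between 4.74 and 16.1 CPM in CD44 KO and between 25.4 and 30.2 CPM in wild type. Dcstamp was nearest to Serpinb1c, Ahnak2 and Cdk18 (0.22, 0.34 and 0.38). No gene was as near to Spp1. Its nearest, Cd300ld4, was at 0.86, then Pira2 at 0.87 and the potassium channel gene Kcnn4 at 0.88, and the first 2 belong to families of close copies whose reads may be shared. None of these 21 neighbours was called by edgeR (adjusted p from 0.0864 to 0.440).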

How the data were processed

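Messenger RNA was enriched with oligo(dT), prepared with the NEBNext Ultra kit and sequenced on a NovaSeq, per the labels' protocols. StringTie 1.3.1, HISAT2, DESeq2 and RSEM were used, in roles left unstated, per the submitters' processing notes, with genome build, annotation and strandedness not given in the sources used here. The authors deposited expected counts per gene, which are estimated and unscaled, and FPKM, scaled for length and depth. The authors' deposited comparison table gives a log2 fold change of KO over NC and p-values with adjusted p-values.

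Expected counts were rounded, filtered by filterByExpr, scaled by TMM and tested across all genes with the quasi-likelihood F-test of edgeR 4.0.16 (robust, R 4.3.3), CD44 KO over wild type, with Benjamini-Hochberg adjustment over the 13829 genes tested. The test was also run on simulated counts with the same dispersion for every gene and no outlying library. That run cannot show how the test behaves with the spread seen in these libraries. SE is the absolute log2 fold change over the square root of F, and intervals use 4 degrees of freedom, whereas the test moderates them, and the interval may therefore disagree with the p-value. CPM are TMM-scaled.

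Alternatives were the size factors of DESeq2, DESeq2 1.42.0, no filter on low counts, a replicate block and leaving out each library. The members and gene lists were chosen with earlier results of these data known. Named genes were the members, Cd44, the called genes of each list and the 3 nearest profiles of each member. Further genes were drawn from the 4 of lowest p in a list or the 2 of lowest p in a marker list. Not all of those are named. Others (Tyrobp, Syk, Cd81, Lgals1, Acp5, Ocstamp, Cd36 and Lpl) were chosen after their values were seen. Gene positions are those of GENCODE M21, matched by identifier.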

Additional observations from a re-analysis of the deposited data

How the results depend on the processing

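All 7 members kept a negative log2 fold change under every alternative tried (the size factors of DESeq2, DESeq2, no filter, the replicate block and each library left out). The counts of calls differed. DESeq2 called 4 members lower, with log2 fold changes of -2.49 (Lgals3), -1.97 (Cd9), -1.61 (Fabp5) and -2.89 (Dcstamp), and over all genes it called 1487 higher and 1459 lower, against 240 and 122 by edgeR. Without a filter on low counts 145 genes were called higher and 85 lower. With 1 library left out, called members ranged from 0 to 6 lower, and called genes from 0 to 1007 higher and from 0 to 1363 lower, with 0 in either direction without wild type replicate 3 and the most lower calls without CD44 KO replicate 1. The members' log2 fold changes then ranged from -6.25 to -2.11 (Trem2), -4.43 to -0.06 (Spp1), -7.40 to -1.90 (Gpnmb), -4.87 to -1.97 (Lgals3), -2.64 to -1.54 (Cd9), -2.35 to -1.26 (Fabp5) and -5.14 to -2.18 (Dcstamp). Ratios to the pan-macrophage markers kept their sign with the markers' mean log2 CPM in place of their sum.

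The replicate numbers in the labels were not taken as pairs, since deviations of same-numbered libraries from their group means correlated at -0.32, -0.22 and -0.02 across genes. With the replicate number as a replicate block edgeR called 0 genes higher, 0 lower and 0 members, and the log2 fold changes were -5.13 (Trem2), -3.45 (Spp1), -6.12 (Gpnmb), -3.85 (Lgals3), -2.04 (Cd9), -1.83 (Fabp5) and -3.81 (Dcstamp), with adjusted p-values from 0.209 to 0.501. Depth limits Dcstamp and, in CD44 KO replicate 2, Spp1, which had 13 and 11 counts there.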
